A study of Mus musculus with 23 samples.

Results

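The cytosolic ribosomal protein genes encode the protein part of the ribosomes that translate nuclear messages. They were followed across 4 groups of mouse hippocampus. Members were taken by symbol: Rpl or Rps with a number, and Rplp0, Rplp1, Rplp2 and Rpsa. Names with -ps, Rps6 kinase genes and names ending in l or l1 were dropped. The rule found 79 of the 52636 genes in the count files: 33 of the small subunit, 43 of the large subunit and 3 of the stalk. Of these, 77 are annotated as protein coding, and Rps3a2 and Rps3a3 as processed pseudogenes. For testing, 74 members had enough counts.

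The study crossed the P301S genotype, which stands for a tau mutation known from human frontotemporal dementia, with hypoxia that the title calls chronic and intermittent. RNA-seq libraries of whole hippocampus came from 4 groups: 5 libraries of P301S in normoxia, 6 of WT in normoxia, 6 of P301S in hypoxia and 6 of WT in hypoxia. All 4 groups shared a mixed background of C57Bl6 and Balbc, and RNA with an integrity number above 9, per the labels. The labels give neither the promoter of the transgene nor the age and sex of the mice or the regimen of hypoxia. Nor do they say that each library is a separate mouse, so a p-value here reflects library-to-library spread, which may be partly technical. The titles carry numbers of unexplained meaning: the 11 P301S libraries have 11 different numbers, the 12 WT libraries share 4, and 0 occur in both genotypes. Whatever the numbers mark cannot be told apart from genotype, nor, in WT, from hypoxia.

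A ribosome joins a small 40S subunit, which reads the message, to a large 60S subunit, which makes the peptide bond. Each ribosomal protein is needed in about the same amount, and free copies are broken down. Their messages are short and abundant, and in mammals most begin with a stretch of pyrimidines, the TOP motif, through which mTOR and Larp1 control their translation. In neurons the messages are also found in axons and dendrites. The stalk of the large subunit, built from Rplp0, Rplp1 and Rplp2 on a base next to Rpl12, recruits the elongation factors.

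Libraries held 19134422 to 25820145 counts, and the members took 0.574% to 0.801% of them. The genotype label was borne out in every library: Prn, at the prion protein locus, had 64 to 138 counts in the 11 P301S libraries and 1 to 10 in the 12 WT libraries. All 10 hippocampal formation markers passed the filter, with summed levels of 1270 to 1478 CPM in P301S normoxia, 1293 to 1434 in WT normoxia, 1392 to 1701 in P301S hypoxia and 1259 to 1583 in WT hypoxia. CPM are counts scaled to the size of the library, corrected by trimmed mean of M values (TMM) factors. Choroid plexus markers varied widely: 6 libraries had scores of -2.94 to -2.07, the mean centred log2 CPM of the list, and the next lowest score was -0.894. These were P301S hypoxia replicates 1 and 4, WT normoxia replicate 4, and WT hypoxia replicates 1, 4 and 5. In the members themselves, P301S normoxia replicate 1 and P301S hypoxia replicate 6 stood above the rest of their groups, and results are given with and without them.

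The members are compact genes, and the count files bear on them in 3 ways. Gene bodies ran from 792 to 25164 bases with a median of 3232. Of the 79 members, 45 overlap another gene in some part, 13 over more than 20% and 7 over more than 80% of their length. Reads were counted over whole gene bodies without a strand setting, and read pairs that overlap 2 genes are dropped by that counter's default. Rpl13, Rpl35, Rpl35a and Rps3a3, each wholly under other genes, had 0 counts in all 23 libraries, and Rpl24, with 98.7% of its length under another gene, had 3. These 5 members are therefore not tested here, and their zeros say nothing about expression. Rpl13a, 88.6% overlapped, was tested on 3256 counts in all. Shared sequence adds a further limit: 59 members have named pseudogenes, 288 in all, among which reads could be split, and 24 members hold a small nucleolar RNA gene in their introns.

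Levels per kb of exon compare genes only roughly. Counts from introns are included, and reads lost to overlapping genes or pseudogenes differ between genes. On that scale Rplp1 of the stalk was highest at 376 CPM per kb, followed by Rps15 at 239, Rps29 at 180.1, Rpl4 at 176 and Rpl8 at 122. Among the lowest tested were Rpl13a at 2.8, Rpl18 at 12.0, Rpl34 at 12.2 and Rpl21 at 13.4 CPM per kb. Rpl13a and Rpl18 are overlapped over 88.6% and 47.3% of their length, so their levels leave those parts out. Rpl21 has 15 named pseudogenes and belongs to the uneven members described further on.

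Promoter windows show what the leading members share in sequence and where they differ. RefSeq gave a promoter for 57 of the 79 members (GRCm38.p6, strand of the gene). Each window holds 50 bases before to 30 after the start that RefSeq gives. It is printed 5′ to 3′ in lower case, with each run of 8 or more pyrimidines (C or T) in capitals. The genes shown were drawn from those with an entry among the 8 members of lowest p in P301S against WT normoxia. Rplp0 of the stalk and Rpl14, among the 8 of lowest p in hypoxia, were added. Some members were left out of the printed set, so a missing window does not mean that RefSeq has no entry. The windows lie at chr2:26910757-26910836 (Rpl7a, plus), chr9:120571467-120571546 (Rpl14, plus), chr17:27635215-27635294 (Rps10, minus), chr7:45718021-45718100 (Rpl18, plus), chrX:37085193-37085272 (Rpl39, minus), chr2:32961662-32961741 (Rpl12, plus) and chr5:115559417-115559496 (Rplp0, plus).
Rpl7a: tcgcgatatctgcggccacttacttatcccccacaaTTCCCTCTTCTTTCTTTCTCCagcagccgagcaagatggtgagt
Rpl14: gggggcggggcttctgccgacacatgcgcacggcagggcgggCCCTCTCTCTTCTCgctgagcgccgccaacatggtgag
Rps10: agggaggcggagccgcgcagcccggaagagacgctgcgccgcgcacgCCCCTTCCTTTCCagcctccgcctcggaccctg
Rpl18: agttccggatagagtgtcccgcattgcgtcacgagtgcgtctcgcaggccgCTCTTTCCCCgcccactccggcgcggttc
Rpl39: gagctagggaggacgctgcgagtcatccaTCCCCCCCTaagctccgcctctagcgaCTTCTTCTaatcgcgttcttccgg
Rpl12: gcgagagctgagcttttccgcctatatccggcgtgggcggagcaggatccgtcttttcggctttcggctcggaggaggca
Rplp0: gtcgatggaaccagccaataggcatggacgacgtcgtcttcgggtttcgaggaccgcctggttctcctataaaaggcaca

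Rpl7a carries the longest run of those shown, 21 pyrimidines, and Rpl12 and Rplp0 carry runs of at most 7. Over all matched members, 32 of 57 windows (56.1%) held a run of 8 or more, against 28.5% of all 12572 promoters. The letters CCGGAAG, on either strand over 250 bases before to 50 after the start, occurred in 40.4% of member promoters and 15.4% of all. GGGCGG, read the same way, occurred in 59.6% of member promoters and 59.3% of all. A match is a description of letters, and RefSeq starts can lie away from the start in the count files, by 2614 bases for Rpl18.

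In P301S against WT hippocampus in normoxia, the ribosomal protein genes were lower almost throughout. Of the 74 tested members, 41 were called lower and 0 higher (edgeR quasi-likelihood test, Benjamini-Hochberg adjusted p under 0.05 over 17788 genes). Of all genes tested, 5.93% were called, 3.59% lower and 2.33% higher. The fold changes of 70 members were negative, and their median log2 fold change was -0.22, a change in level of -14.35%, while the median over all tested genes was 0.01. In bulk tissue, fewer cells of a type with high ribosomal protein messages and less of these messages per cell cannot be told apart. The call count rested on which libraries were in: without P301S normoxia replicate 2 it was 8, without replicate 3 it was 15, without replicate 4 it was 23 and without replicate 5 it was 18. It was 22, 24, 23 and 21 without WT normoxia replicates 2, 3, 5 and 6. The share of all genes called lower fell alongside, to 1%, 1.64%, 1.82% and 1.73% without those P301S libraries and 2.44%, 2.44%, 2.08% and 2.08% without those WT libraries. Without P301S normoxia replicate 1, whose levels were the highest of its group, 52 members and 6.76% of all genes were called lower, and the members' median was -0.29. Leaving out any 1 library did not turn the median, which stayed between -0.29 and -0.20.

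**Figure D1:**
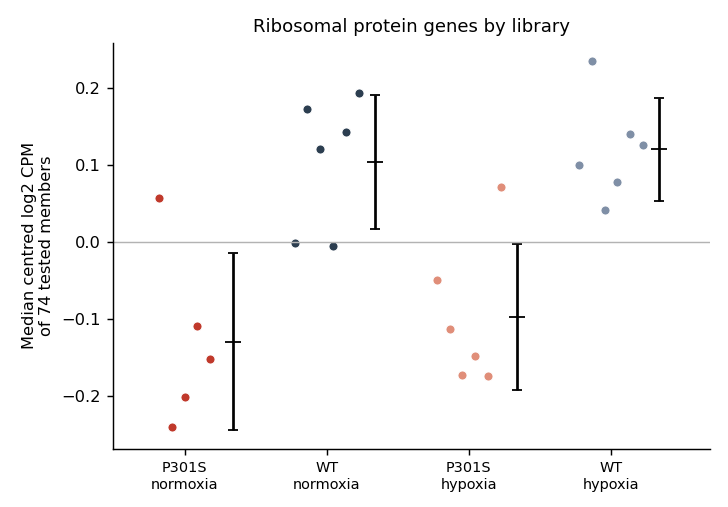
Median centred log2 CPM of the 74 tested members in each library (points), by group, with the group mean and SD (bars to the right). Of the P301S libraries, normoxia replicate 1 (0.06) and hypoxia replicate 6 (0.07) lie among the WT libraries, and the other 9 lie below all 12 WT libraries.

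The same summary per library shows how the groups lie. The members' median centred log2 CPM averaged -0.13 ± 0.12 in P301S normoxia (SD, n = 5) and 0.10 ± 0.09 in WT normoxia (SD, n = 6). It averaged -0.10 ± 0.10 in P301S hypoxia and 0.12 ± 0.07 in WT hypoxia (SD, n = 6 each). Summed over members, levels ran from 5699 to 6949 CPM in P301S normoxia, against 6571 to 7535 CPM in WT normoxia, so the groups overlapped. In hypoxia the sums ran from 5911 to 6889 CPM in P301S, against 6758 to 7812 CPM in WT, and overlapped as well.

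The stalk genes were all called lower in P301S normoxia. With the trends with gene length and GC content removed, Rplp0 kept its call (adjusted p = 0.0396), and Rplp1 (adjusted p = 0.101) and Rplp2 (adjusted p = 0.0729) did not. Rplp0, the protein that anchors the stalk, (chr5:115559467-115563727, GRCm38) had 127, 94.4, 111, 105 and 95.6 CPM in P301S normoxia. WT normoxia had a lowest, median and highest level of 119.6, 132 and 141 CPM. It fell by 0.31 on the log2 scale (SE 0.0695, adjusted p = 0.0132 in edgeR), with replicate 1 the P301S library that reached into the WT range. Rplp1 and Rplp2 form the pairs of the stalk that bind elongation factors. Rplp1 fell by 0.37 (SE 0.0914, adjusted p = 0.0201), with 159.9 ± 21.4 CPM in P301S and 207 ± 18.9 CPM in WT (SD, n = 5 and 6). Rplp2 fell by 0.32 (SE 0.0742, adjusted p = 0.0157), with 71.4, 56.3, 55.2, 53.5 and 58.0 CPM in P301S, against 62.3, 73.4 and 79.99 CPM (lowest, median, highest) in WT. As with Rplp0, P301S replicate 1 lay inside the WT range for Rplp2.

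Of the large subunit genes, 22 of 39 were called lower, with a median log2 fold change of -0.23. Rpl12 (chr2:32961559-32965345), at the base of the stalk, had the lowest p of the members. Its levels were 70.5, 58.8, 57.5, 60.6 and 59.8 CPM in P301S normoxia, and 73.6, 75.6 and 83.0 CPM (lowest, median, highest) in WT normoxia. All 5 P301S libraries thus lay below all 6 WT libraries, and Rpl12 fell by 0.32 (SE 0.0572, adjusted p = 0.00354). Rpl18 (chr7:45715457-45720836) fell by 0.47 (SE 0.088, adjusted p = 0.00481), with 47.2, 36.0, 39.1, 38.9 and 32.2 CPM in P301S and 49.1, 54.7 and 57.6 CPM in WT, again with no overlap. The deposited counts of Rpl18 leave out the 47.3% of the gene that lies under Sphk2. Rpl39 lines the tunnel through which the new peptide leaves. It fell by 0.38 (SE 0.0732, adjusted p = 0.00512), with 26.8, 24.4, 22.5, 24.0 and 25.8 CPM in P301S and 26.1, 33.2 and 37.3 CPM in WT, and 1 P301S library lay within the WT range. Rpl36 fell by 0.44 (SE 0.093, adjusted p = 0.00903), Rpl32 by 0.31 (SE 0.0699, adjusted p = 0.012) and Rpl7a by 0.26 (SE 0.0582, adjusted p = 0.0127). Groups did not overlap for 6 members, all of the large subunit: Rpl12, Rpl13a, Rpl15, Rpl18, Rpl36a and Rpl7a. All P301S libraries lay below all WT libraries for 1.72% of all genes, and above them for 1.62% of all genes and 0 members.

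Of the small subunit genes, 16 of 32 were called lower, with a median of -0.22. Rps10 (chr17:27630422-27636629), mutated in some families with Diamond-Blackfan anaemia in humans, had 61.7, 47.7, 50.9, 49.3 and 50.6 CPM in P301S normoxia and 59.0, 65.8 and 69.4 CPM in WT normoxia. It fell by 0.33 (SE 0.064, adjusted p = 0.00568), with replicate 1 the single P301S library inside the WT range. Rps14, the gene whose loss of a copy underlies the anaemia of the 5q- syndrome in humans, had 84.4, 64.8, 68.7, 66.9 and 62.0 CPM in P301S and 76.7, 93.4 and 95.0 CPM in WT. It fell by 0.36 (SE 0.0814, adjusted p = 0.012), and again replicate 1 alone reached the WT range. Rpsa (chr9:120127689-120132369), also known as the laminin receptor, fell by 0.25 (SE 0.0676, adjusted p = 0.0306), with 224.97, 166, 189, 188 and 177 CPM in P301S and 207, 230.3 and 236 CPM in WT. That call was lost in 8 of 11 fits that left out 1 compared library, and with the length and GC trend removed (-0.19, adjusted p = 0.0837). A processed pseudogene of Rpsa, Lamr1-ps1 on chromosome 2, had 35 to 98 counts in the 11 P301S libraries and 0 in the 12 WT libraries. Those counts equalled 0.905% to 2.18% of the Rpsa counts of the same P301S libraries. Whether reads of Rpsa were lost to the pseudogene was not tested.

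Not every member was lower. Rps3a2, Rps2, Rps18 and Rpl21 had positive fold changes of 0.94, 0.49, 0.35 and 0.02 in P301S normoxia, with adjusted p of 0.233, 0.654, 0.631 and 0.987. All 4 belong to 7 members whose levels were uneven within groups, described further on. Rps3a2 was called higher (1.53, adjusted p = 0.0408) when WT normoxia replicate 6 was left out. The 67 other members were all negative. The most negative value, -0.84 for Rps3a1 (adjusted p = 0.132), belonged to an uneven member and was not called. Rpl23a (-0.06), Rps26 (-0.06), Rpl3 (-0.08), Rps15a (-0.09) and Rpl22 (-0.09) were among those nearest to 0 and were not called. Rpl3, at the peptidyl transferase centre, averaged 266 ± 23.1 CPM in P301S normoxia and 281 ± 42.9 CPM in WT normoxia (SD, n = 5 and 6).

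**Figure D2:**
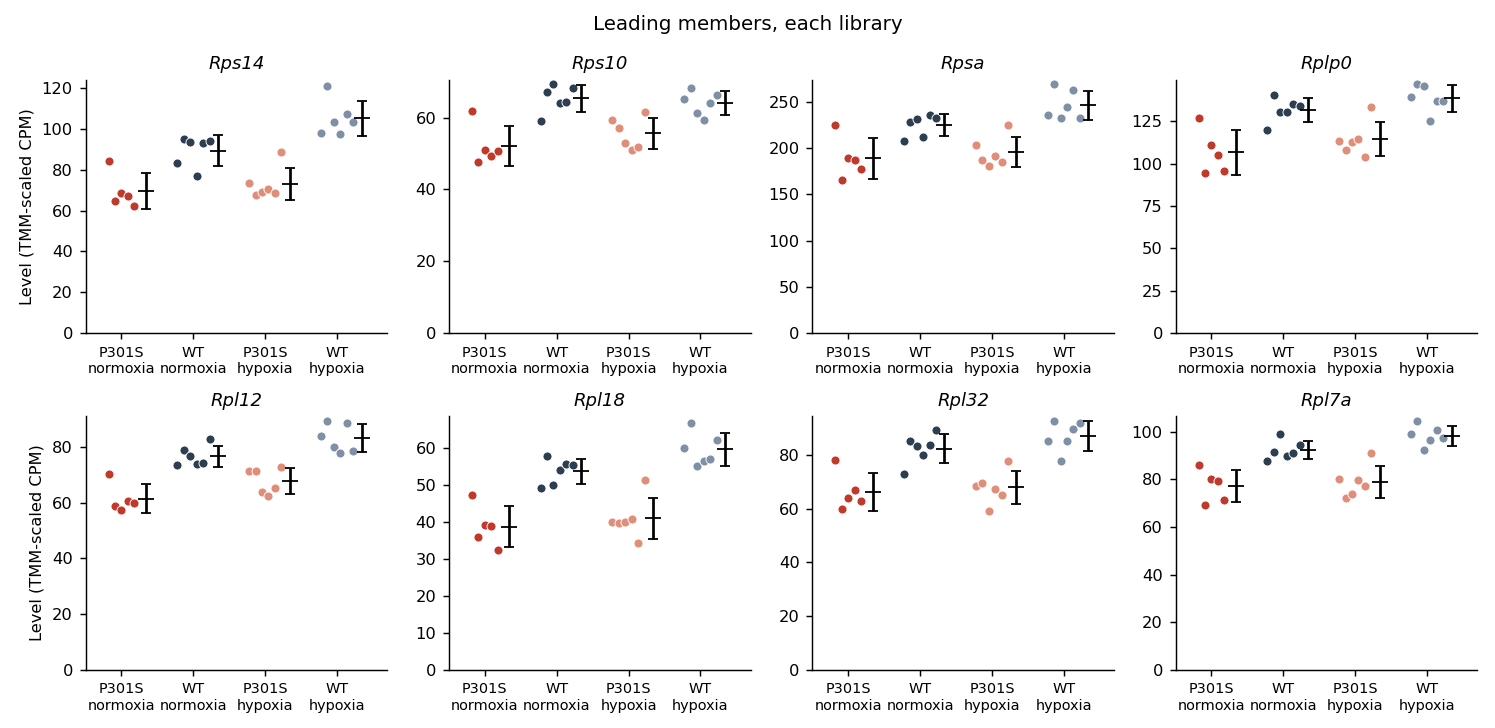
Levels of 8 members (TMM-scaled CPM, axis from 0) in each library (points), by group, with mean and SD (bars to the right). Within each oxygen condition most P301S libraries lie below WT libraries, and P301S normoxia replicate 1 and P301S hypoxia replicate 6 are the highest of their groups.

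The genotype comparison in hypoxia uses other libraries altogether, and the members were again lower in P301S. Of 74 tested members, 18 were called lower and 0 higher, against 1.93% of all genes called, 1.37% lower and 0.562% higher. Fold changes were negative for 72 members, and the median was -0.21, with 0.00 for all genes. Calls fell on 5 of 32 small subunit genes, 12 of 39 large subunit genes and Rplp0 of the stalk. Groups did not overlap for 15 members (all P301S below all WT), against 1.25% of all genes, and 0 members lay the other way round, against 0.68%. Among them were Rpl6, Rpl7a, Rpl9, Rpl12, Rpl14, Rpl18, Rpl19, Rpl23a, Rpl38, Rpl39, Rps6, Rps7, Rps14 and Rpsa. Without P301S hypoxia replicate 6, the highest of its group, 37 members and 2.66% of all genes were called lower, and the members' median was -0.25. Without WT hypoxia replicate 2, the highest of the WT libraries, 9 were called (0.355% of all genes), and the count was 31 (1.99%) without P301S normoxia replicate 1, which is in the fit but not in that comparison. The DESeq2 Wald test called 37 members and 2.74% of all genes lower.

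Rps14 led in hypoxia. Its lowest, median and highest levels were 67.6, 69.8 and 88.6 CPM in P301S hypoxia, against 97.5, 103 and 121 CPM in WT hypoxia, and the groups did not overlap. It fell by 0.53 (SE 0.0773, adjusted p = 0.000899 in edgeR). Rpl18 fell by 0.54 (SE 0.0835, adjusted p = 0.00152), with 34.1, 39.8 and 51.3 CPM in P301S hypoxia and 55.1, 58.4 and 66.7 CPM in WT hypoxia. Rpl7a, Rpl12, Rpl32, Rpsa, Rpl6 and Rpl14 followed, with log2 fold changes of -0.32, -0.29, -0.36, -0.33, -0.23 and -0.29 and adjusted p between 0.00481 and 0.0132. Rplp0 fell by 0.28 (SE 0.066, adjusted p = 0.0314), with 104, 113 and 133 CPM in P301S hypoxia and 125, 138 and 147 CPM in WT hypoxia. Rplp1 (-0.28, adjusted p = 0.0952) and Rplp2 (-0.14, adjusted p = 0.307) of the stalk were not called in hypoxia. Rplp1 was called by DESeq2 (-0.28, adjusted p = 0.0369) and by edgeR without P301S hypoxia replicate 6 (-0.37, adjusted p = 0.0106). The call of Rplp0 in hypoxia was lost in 7 of 12 fits without 1 library. Positive values occurred for Rps15a (0.13, adjusted p = 0.389) and Rpl21 (0.12, adjusted p = 0.914).

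Both oxygen conditions can be set side by side, since the genotype comparisons share no library. Of all genes, 3.59% were called lower in normoxia and 1.37% in hypoxia, and the share called in both was not computed. Called lower in both were 17 members, which is 41.5% of the 41 called in normoxia and 94.4% of the 18 called in hypoxia. These were Rpl6, Rpl7a, Rpl9, Rpl11, Rpl12, Rpl13a, Rpl14, Rpl18, Rpl19, Rpl32, Rpl41, Rplp0, Rps6, Rps7, Rps9, Rps14 and Rpsa. The list includes Rps6, the target of S6 kinase, and Rpl11, which with Rpl5 can bind Mdm2. With 1 compared library left out, the call of Rpl11 was lost in 8 of 11 fits in normoxia and 9 of 12 in hypoxia, and that of Rps6 in 8 of 11 in normoxia and 0 of 12 in hypoxia. With the length and GC trend removed, Rps6 was called in neither (adjusted p = 0.879 and 0.276). Fold changes were negative in both for 69 members, while 47.8% of all genes were negative in normoxia and 49.9% in hypoxia. The share of all genes negative in both was not computed, nor was the correlation of their fold changes. Across the 67 evenly measured members the fold changes of both comparisons correlated with r = 0.637 (Spearman rho 0.63), where members share libraries and are no independent replicates.

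**Figure D3:**
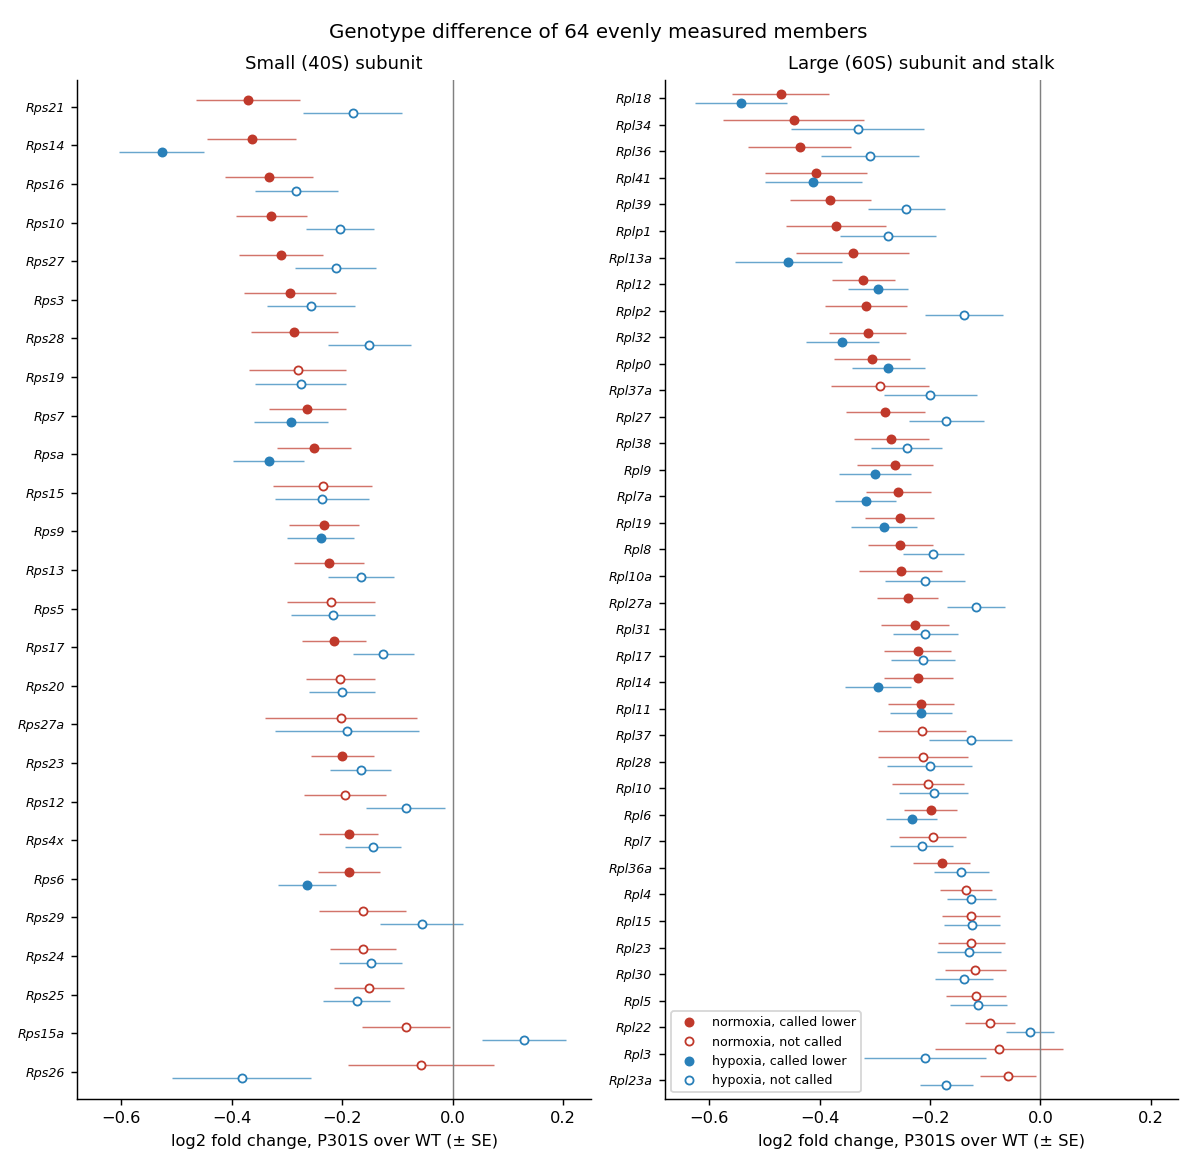
Log2 fold change of P301S over WT with its SE for 64 of the 67 evenly measured members, small subunit on the left and large subunit with stalk on the right. Red is normoxia and blue hypoxia, and filled points are members called lower. Nearly all points lie left of 0, with Rpl18 farthest at -0.47 in normoxia and -0.54 in hypoxia.

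No member was called for hypoxia against normoxia in either genotype. In P301S, 0 of 74 members were called between hypoxia and normoxia, with a median log2 fold change of 0.03 and 1 member, Rpl12, at an unadjusted p under 0.05 (0.14, adjusted p = 0.269). Without P301S normoxia replicate 1 that median was 0.09 with 9 members under 0.05, and without P301S hypoxia replicate 6 it was -0.001158 with 0, and neither fit called a member. In WT, 0 of 74 were called, with a median of 0.01 and 4 members at an unadjusted p under 0.05: Rps14, Rpl22, Rps3a2 and Rpl12. Rps14 was the one WT member with no overlap, at 97.5, 103 and 121 CPM in WT hypoxia against 76.7, 93.4 and 95.0 CPM in WT normoxia (0.24, SE 0.0769, adjusted p = 0.219). Across all genes, WT hypoxia lay wholly above WT normoxia for 0.298% and wholly below for 0.394%. In P301S no member was without overlap, against 1.01% of all genes wholly above and 1.12% wholly below. Rpl22 differed by -0.12 in WT (SE 0.0435, adjusted p = 0.264) and by -0.05 in P301S (SE 0.0456, adjusted p = 0.683). Few genes of any kind were called: 0.304% in P301S (0.169% higher, 0.135% lower) and 0.0787% in WT (0.0337% higher, 0.045% lower). DESeq2 called 0 members in both. These p-values do not show that levels were equal.

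The difference between the genotype effects, tested as an interaction, was called for 0 of 74 members by edgeR, with 0 at an unadjusted p under 0.05, and 0% of all genes were called. DESeq2 called 0 members too. The lowest p belonged to Rps15a, with an interaction of 0.21 on the log2 scale (SE 0.111, adjusted p = 0.564): its genotype difference was 0.13 in hypoxia and -0.09 in normoxia. The larger number of calls in normoxia than in hypoxia is therefore not a tested difference between the conditions.

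Uneven members formed a group of their own. Within-group SDs of log2 CPM were above 0.5 for Rpl29, Rpl26, Rps2, Rpl21, Rps3a2, Rps18 and Rps3a1, from 0.549 to 1.12, while the next highest SD was 0.241 and the median over 74 members 0.119. For several of them the libraries fell on separate levels. Rpl29, a large subunit protein, was at 4.71 to 6.33 CPM in 5 libraries, at 25.02 to 37.1 in 14 and at 63.7 to 67.97 in 4. The 5 lowest were P301S normoxia replicates 2 and 3 and WT normoxia replicates 1, 2 and 4, and all 12 hypoxia libraries lay on the upper levels. Rpl26 was at 16.6 to 20.4 CPM in 4 libraries, at 64.3 to 90.8 in 15 and at 118 to 145 in 4. The 4 lowest were P301S hypoxia replicates 2 and 3, P301S normoxia replicate 1 and WT normoxia replicate 5, so both genotypes held low libraries. Rpl21 had 8.53 and 9.64 CPM in WT hypoxia replicates 5 and 3, and 32.0 to 69.3 CPM in the other 21.

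Rps2, a small subunit protein at the messenger entry channel, had 9 libraries at 16.1 to 23.6 CPM and 14 at 45.5 to 118. Of the low libraries, 3 were P301S hypoxia, 4 WT normoxia and 2 WT hypoxia, and none was P301S normoxia. Rps18 had its 4 lowest libraries, 24.3 to 27.9 CPM, in WT, and the other 19 ran from 45.9 to 101. For Rps3a1 and the annotated pseudogene Rps3a2, the 3 libraries highest in Rps3a1 (181 to 214 CPM), WT normoxia replicates 1, 3 and 5, were the 3 lowest in Rps3a2 (3.47 to 3.86 CPM). Added together, the pair still had an SD of 0.365. Adding the counts of named pseudogenes changed the SD of Rps2 to 0.736, against 0.918 for the gene alone, and of Rpl29 to 1.09, against 1.12. None of the 7 was called in any comparison, so the 41 and 18 calls all lie among the other 67.

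**Figure D4:**
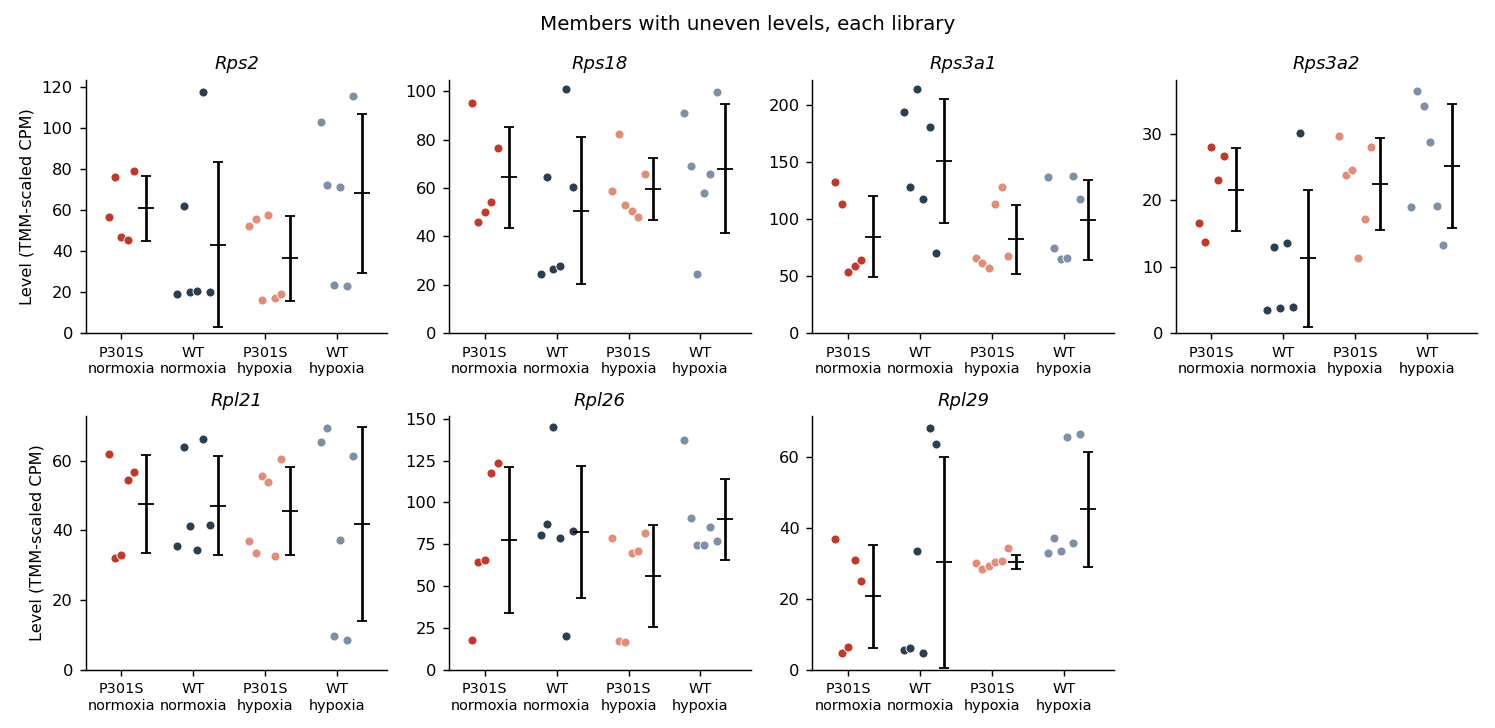
Levels of the 7 uneven members (TMM-scaled CPM, axis from 0) in each library (points), by group, with mean and SD (bars to the right). Rpl29 falls on levels near 5, 30 and 66 CPM, and low libraries occur in both genotypes for Rpl26 and Rps2.

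Gene length ran with the genotype difference over all genes, and the members sit among the shortest. Tested genes were cut into 10 bins of equal size by gene body, and 68 of the 74 members lay in the shortest 2 bins, 57 to 2915 and 2915 to 6342 bases. The median log2 fold change of all genes in the shortest bin was -0.17 in normoxia and -0.12 in hypoxia, and in the longest bin 0.11 and 0.08. Members in the shortest bin (n = 32) had medians of -0.22 in normoxia and -0.20 in hypoxia, and those in the second (n = 36) -0.25 and -0.24, against -0.11 and -0.08 for all genes of the second bin. Of all genes in these bins, 8.89% and 9.78% were called lower in normoxia, and 5.46% and 3.54% in hypoxia. The part of gene length in the members' difference was not tested beyond removing the trend. Among the 67 even members, fold change followed GC content of the transcript (Spearman rho -0.53 in normoxia and -0.433 in hypoxia) more closely than gene length (rho 0.127 and 0.0326), as a description across genes that share libraries. Nearly all members are short, so length had a narrow range among them. These rho values therefore do not rank GC content against gene length.

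When trends of the libraries with GC content and gene-body length were removed, the members' median was -0.16 in normoxia and -0.15 in hypoxia. Called lower were then 10 members in normoxia (1.51% of all genes) and 10 in hypoxia (0.517%). Rpl12, Rpl18, Rpl32, Rpl41 and Rps14 were called in both. Rps14 had -0.24 (SE 0.0602, adjusted p = 0.0342) in normoxia and -0.43 (SE 0.0572, adjusted p = 0.000314) in hypoxia. Rpl18 had -0.39 (SE 0.0701, adjusted p = 0.00695) and -0.47 (SE 0.0665, adjusted p = 0.000606). Removing the trend with length alone left 8 members called lower in normoxia (1.14% of all genes) and 8 in hypoxia (0.309%). With the GC trend alone removed, 43 were called lower in normoxia (3.96% of all genes) and 19 in hypoxia (1.11%). The members' medians were then -0.245 and -0.200.

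**Figure D5:**
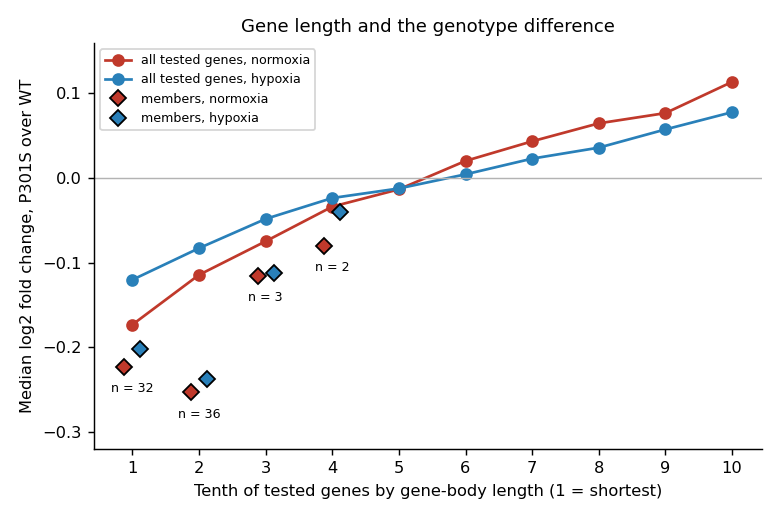
Median log2 fold change of P301S over WT for all tested genes in each of 10 bins of gene-body length (lines), and for the members in bins that hold at least 2 of them (diamonds, with their number). All-gene medians climb from -0.17 to 0.11 in normoxia, and the members lie below the line in each bin shown.

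The choroid plexus score averaged 0.56 in P301S normoxia and 0.85 in WT normoxia, and -0.61 in P301S hypoxia and -0.70 in WT hypoxia. Summed levels of the 14 tested markers of 15 ran from 1150 to 5330 CPM in P301S normoxia, 262.8 to 5537 in WT normoxia, 286 to 3963 in P301S hypoxia and 306 to 4749 in WT hypoxia, and none was called for genotype. With the score as a covariate, 41 members were called lower in normoxia (3.81% of all genes) and 21 in hypoxia (1.51%). Without the 6 libraries low in these markers, medians were -0.25 and -0.24, and edgeR called 16 members lower in normoxia (1.01% of all genes) and 0 in hypoxia. In that hypoxia comparison of 4 P301S with 3 WT libraries, 46 members had an unadjusted p under 0.05 and 0.0111% of all genes were called lower. Of the tested pan-neuronal, astrocyte, microglia, oligodendrocyte, endothelial and ependymal markers, none was called for genotype. Gfap of the 5 astrocyte markers and P2ry12 of the 6 microglia markers were not tested. Of the 10 hippocampal formation markers, 2 were called in normoxia and 1 in hypoxia, against 5.93% and 1.93% of all genes. Their mean score was -0.113 in P301S normoxia and -0.0175 in WT normoxia, and 0.108 in P301S hypoxia and 0.0041 in WT hypoxia. The SDs of that score within groups ran from 0.0808 to 0.122. The part of cell makeup in the members' difference was not tested further.

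The rest of the translation machinery was measured in lists that the rule did not reach, whose counts stand against 3.59% of all genes called lower in normoxia and 1.37% in hypoxia. Rack1, a scaffold on the small subunit, fell by 0.31 in normoxia (adjusted p = 0.00789) and by 0.29 in hypoxia (adjusted p = 0.0178). It averaged 103 ± 11.3 CPM in P301S normoxia, 128 ± 7.38 in WT normoxia, 108 ± 8.93 in P301S hypoxia and 132 ± 6.72 in WT hypoxia. Fau, which encodes Rps30 fused to a ubiquitin-like protein, fell by 0.36 in hypoxia (adjusted p = 0.0227), with -0.27 (adjusted p = 0.0538) in normoxia. Of the 18 other messages with a TOP motif, 4 fell in normoxia and 3 in hypoxia, with medians of -0.13 and -0.07. Eef1b2, an exchange factor of elongation, fell by 0.25 (adjusted p = 0.00354) and 0.19 (adjusted p = 0.0242), and Eif3h by 0.23 (adjusted p = 0.014) and 0.30 (adjusted p = 0.00354), each in normoxia and then hypoxia. Tpt1 (-0.22) and Eef2 (-0.22), the translocation factor, fell in normoxia and were not called in hypoxia, where Eif3l, named after its value was seen, fell by 0.18 (adjusted p = 0.0439).

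Of 21 tested initiation factors, 4 fell in normoxia and 2 in hypoxia, with medians of -0.05 and -0.02. Eif5a fell by 0.31 (adjusted p = 0.00238) and 0.19 (adjusted p = 0.0477), and Eif3g by 0.21 (adjusted p = 0.0417) and 0.26 (adjusted p = 0.0227). Of 39 ribosome biogenesis genes, 2 fell in normoxia, Nhp2 (-0.34) and Imp3 (-0.26), and 1 in hypoxia, Nhp2 (-0.29), close to the shares of all genes called lower, 3.59% and 1.37%. Of 15 regulators, 2 rose in normoxia, Rps6kb1 (0.18, adjusted p = 0.0299), the kinase of Rps6, and Yy1 (0.20, adjusted p = 0.037), and 0 were called in hypoxia. Of the 4 tested paralogs that the rule drops, none was called. Rpl6l, annotated as a processed pseudogene, Rps27l and Rpl22l1 had negative values in both conditions (-0.29, -0.29 and -0.19 in normoxia). Rpl3l had positive values in both, 0.31 in normoxia and 0.11 in hypoxia. In none of these lists was a gene called for hypoxia against normoxia or for the interaction.

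Fold changes can be set beside the pyrimidine runs. The 30 tested members with a run had a median of -0.22 in normoxia and -0.21 in hypoxia, with 18 and 8 called lower. The 23 matched members without one had medians of -0.25 and -0.23, with 15 and 7 called lower. Of all genes, 3.59% were called lower in normoxia and 1.37% in hypoxia. RefSeq starts lay within 50 bases of the gene start in the count files for 36 of the 57 matched members. A window set away from the start in use can miss a run. Rpl7a, with the longest run of the printed windows, fell by 0.26 in normoxia. Rpl12 and Rplp0, with no run of 8 in their windows, fell by 0.32 and 0.31.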

How the data were processed

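The authors deposited raw counts, which per the file headers are read pairs over whole gene bodies of Ensembl release 90, from featureCounts 1.6.2 with no strand setting. Alignment names in those headers carry a mark for duplicate removal. HISAT2, DESeq2 1.6.3 and mm10 come from the submitters' processing notes. Removal of duplicates can lower short abundant genes, such as these, more than others. GENCODE release M21 gave 52489 of 52636 symbols, and genes without one held at most 0.0356% of a library's counts. Genes were kept by filterByExpr (minimum count 10), which removed 0.0539% to 0.0881% of counts. One edgeR 4.0.16 quasi-likelihood model (R 4.3.3, robust, TMM) of 4 group means was fitted to all 23 libraries, and 5 contrasts were tested two-sided with Benjamini-Hochberg adjustment over 17788 genes. The fit was tested on simulated data, with changes put into genes drawn from all tested genes in P301S normoxia. Of genes changed by 0.25, 0.5 and 1 on the log2 scale, 8.96%, 58.2% and 78.8% were called in the right direction. Of 17588 unchanged genes, 9 were called. Most changes of 0.25 were thus missed there, so a gene that is not called may still differ. DESeq2 1.42.0, limma 3.58.1 and the other settings in the closing section were alternatives. Replicates follow accession order, and no pair of libraries within a group looked like a repeat deposit of 1 library (lowest chi-square per degree of freedom 5.13 over 55 pairs). With 19134422 to 25820145 counts per library, counting error is small beside the spread between libraries for all but the overlapped members.

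Members and lists were chosen with earlier results of these data known. Named are the stalk genes and Rpsa, the 8 members of lowest p and up to 3 against the median's direction per comparison, the 5 highest and lowest levels, untested members, and up to 4 genes per list. Others named were chosen after their values were seen. A member was called uneven above a within-group SD of 0.5, on log2 CPM with a pseudocount of 0.5, also set after the values were seen. Some members are counted but not reported here by name.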

Additional observations from a re-analysis of the deposited data

Results flagged for a closer look

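Library values were examined for 27 items in 4 groups: the members named in a comparison and the members' median centred log2 CPM. Of these 108 sets, 9 had a single library far from the others by Dixon's criterion, 8.33%, where chance gives about 1 in 20. P301S normoxia replicate 1 was high for 4 members. Its levels were 70.5 CPM for Rpl12 against 57.5 to 60.6 in the other 4 libraries, 35.6 for Rpl36 against 26.4 to 28.8, 71.4 for Rplp2 against 53.5 to 58.0, and 61.7 for Rps10 against 47.7 to 50.9. P301S hypoxia replicate 6 was high for another 4. Its levels were 90.7 CPM for Rpl14 against 75.9 to 80.6 in the other 5 libraries, 37.9 for Rpl36 against 28.4 to 30.6, 133 for Rplp0 against 104 to 115, and 88.6 for Rps14 against 67.6 to 73.3. Members of 1 library are not independent, so these 8 values come from 2 libraries. Both carried the P301S signal of Prn and Lamr1-ps1. WT hypoxia replicate 1 was high for Rpl26, one of the uneven members, at 137 CPM against 74.4 to 90.8.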

How the results depend on the processing

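The members' medians kept their direction in both genotype comparisons under all alternatives. No called value of a named member changed sign, but uncalled members near 0 did: with the length and GC trend removed, 66 members were negative in normoxia, against 70 before, and 69 in hypoxia, against 72. The 41 members lower in normoxia (3.59% of all genes) became 15 (1.12%) when the compared groups were fitted alone. They became 10 (1.51%) with the length and GC trend removed and 8 (1.14%) with the length trend removed. Without the 6 libraries low in choroid plexus markers they became 16 (1.01%). Leaving out single libraries gave counts of 8 to 52, and 0 to 1 members higher. The 18 members lower in hypoxia (1.37% of all genes) became 37 (2.74%) by DESeq2 and 28 (1.58%) with pseudogene counts added. They became 10 (0.517%) with the length and GC trend removed and 8 (0.309%) with the length trend removed. They became 0 (0.0111%) without the 6 libraries, and ran from 9 to 37 with 1 library left out. Fewer libraries were fitted when the compared groups stood alone or when libraries were left out. The cause was not tested for any of these changes. The trends with length alone or GC alone and the 6 libraries were chosen after seeing the data. In normoxia Rpl12, Rpl18, Rpl39 and Rps14 kept their call when each of the 11 compared libraries was left out and under the 12 other settings. Of the values of named members under alternatives, 2172 stayed on their side of the threshold in the same direction or uncalled, 53 lost a call and 3 gained one. The interaction cannot be had from 2 groups alone. No paired analysis was possible because replicate numbers follow accession order and pair no libraries. Overlapped members limit the depth: Rpl13a had 3256 counts in 23 libraries.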
